A study of Rattus norvegicus with 15 samples.

Results

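The genes described here encode the complement and coagulation factors of plasma, most of which are secreted by hepatocytes. They were given as a list of 43 genes named by function, and the list was drawn up with earlier results of these arrays known. Each gene was read from the probe sets (sets of short probes) that carry its current or former symbol, and the brightest probe set stood for the gene. Of the 43 genes, 37 had at least 1 probe set of their own, and they are 37 of 14217 such genes on the array. Kng1 is counted among the 37 through Kng2l1, of which it is a former symbol. C2, Cfb and C4a were read only by probe sets shared with another gene. F7, F11 and F13b had no probe set under these symbols and are not analysed here. All 37 genes passed the filter on low values, which kept 9540 genes for testing.

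Complement is a cascade of plasma proteases that marks foreign or damaged surfaces. The classical and lectin routes and the alternative route meet at C3, and the terminal factors then assemble a pore in the target membrane. Coagulation is a related protease cascade that ends when thrombin turns fibrinogen into fibrin, while anticoagulants restrain it and plasmin dissolves the clot. The liver is the main source of these proteins, and many of them are acute phase proteins whose transcription in hepatocytes responds to cytokines such as IL-6.

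The 15 livers came from male Sprague Dawley rats, 7 weeks of age when the study began. In every group the diet was high in fat, which supplied 59% of the energy, so there was no lean comparison. The rats were gavaged daily for 6 weeks with vehicle (0.5% methylcellulose), with PF-04923503 at 10 mg/kg or with PF-04923503 at 30 mg/kg, in 5 samples each. The labels call PF-04923503 an acetyl-CoA carboxylase inhibitor, and that enzyme makes malonyl-CoA for fatty acid synthesis. The comparisons ask whether transcripts of the liver change with either dose against vehicle and with the higher dose against the lower. Nothing in the labels says that the samples of a group are different rats, so the tests use the spread among the samples, which may be technical.

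Values are log2 signals that the authors normalised between arrays, and a difference in means is given as a log2 difference or as a fold. In bulk liver, fewer cells of a type and less RNA per cell cannot be told apart. Hepatocyte markers, which define the labelled tissue, were measured for 9 of 10 listed genes, and their summed log2 level lay between 17.52 and 17.58 in vehicle, between 17.55 and 17.58 at 10 mg/kg and between 17.53 and 17.58 at 30 mg/kg. The sum rests on the brightest markers, such as Alb (albumin) at 15.34 to 15.38, the top of the table, so its steadiness says little about hepatocyte content. At an unadjusted p under 0.05, 2 of the 9 were higher and 0 lower at each dose (limma). Among all genes 4.49% were higher at 10 mg/kg and 5.27% at 30 mg/kg. As a measure of RNA quality, Gapdh gave a higher signal on its 3′ than on its 5′ control probe set, by 0.39 ± 0.03 in vehicle, 0.34 ± 0.02 at 10 mg/kg and 0.37 ± 0.09 at 30 mg/kg (log2, SD, n = 5 each). The excess was larger for the other 3′ and 5′ controls. In the same order of groups it was 1.74 ± 0.07, 1.73 ± 0.03 and 1.72 ± 0.12 for beta-actin. For hexokinase it was 1.83 ± 0.05, 1.93 ± 0.06 and 1.80 ± 0.19, with 30 mg/kg samples between 1.51 and 1.99. Vehicle sample 1 stood apart in the factors: it was the highest of the 15 samples in 22 of the 37 (59.5%) and the lowest in 0, whereas it was the highest in 12.2% of all genes. Without it, the log2 difference from vehicle changed sign or moved by more than 1.5 times in 23 of the 37 factors at 10 mg/kg and in 22 at 30 mg/kg, and 0 factors passed at either dose (limma, Benjamini-Hochberg). Values without it are given beside such differences where either value is 0.10 or more in size.

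The 5′ flanks of 4 genes are shown because the results turn on them. C6 had the largest difference from vehicle, and Fga, Fgb and Fgg, which lie next to each other on the same chromosome, encode the chains of 1 protein and are compared sample by sample. The sequences are from RefSeq (GRCr8), run 5′ to 3′ on the strand of the gene and hold 250 bases before and 50 bases after an annotated start. Where a gene had several entries, the first was used. The annotated genes C6 and Fgg begin before that start, at chr2:55573596 and chr2:170652929. Part of the bases before the start therefore lies within these 2 genes. Capitals mark CTGGGA, the core of an IL-6 response element known from the rat fibrinogen genes, GTTAAT, part of the site of the hepatocyte factor HNF1, and TTNNGNAAT, a C/EBP site, on either strand. No match in these windows overlapped another. C6 lies at chr2:55573383-55573682 on the plus strand, Fgg at chr2:170652833-170653132 on the plus strand, Fga at chr2:170671919-170672218 on the plus strand and Fgb at chr2:170700826-170701125 on the minus strand.
C6: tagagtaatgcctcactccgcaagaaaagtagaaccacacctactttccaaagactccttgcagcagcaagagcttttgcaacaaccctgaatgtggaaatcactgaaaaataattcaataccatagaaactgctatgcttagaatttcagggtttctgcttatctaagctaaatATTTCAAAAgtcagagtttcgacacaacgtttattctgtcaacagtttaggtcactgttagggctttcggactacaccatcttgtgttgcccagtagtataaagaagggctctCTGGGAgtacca
Fgg: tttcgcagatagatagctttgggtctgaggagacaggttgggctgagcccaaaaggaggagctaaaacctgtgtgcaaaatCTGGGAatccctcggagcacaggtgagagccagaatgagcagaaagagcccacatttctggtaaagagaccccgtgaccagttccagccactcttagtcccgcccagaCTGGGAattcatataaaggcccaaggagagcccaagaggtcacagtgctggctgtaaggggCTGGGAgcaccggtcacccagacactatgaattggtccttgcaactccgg
Fga: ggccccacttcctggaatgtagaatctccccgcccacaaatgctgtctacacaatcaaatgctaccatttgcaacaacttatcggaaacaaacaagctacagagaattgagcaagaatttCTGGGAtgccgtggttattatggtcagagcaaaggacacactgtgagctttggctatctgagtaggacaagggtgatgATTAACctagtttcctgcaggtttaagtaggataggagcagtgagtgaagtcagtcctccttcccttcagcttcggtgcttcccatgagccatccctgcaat
Fgb: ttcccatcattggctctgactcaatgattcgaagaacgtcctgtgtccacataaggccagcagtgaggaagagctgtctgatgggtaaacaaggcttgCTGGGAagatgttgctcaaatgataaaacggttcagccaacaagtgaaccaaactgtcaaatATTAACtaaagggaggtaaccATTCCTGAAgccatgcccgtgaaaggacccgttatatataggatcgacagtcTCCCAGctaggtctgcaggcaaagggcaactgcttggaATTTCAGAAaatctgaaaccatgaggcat

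The C6 window held 1 copy of CTGGGA, 0 of GTTAAT and 1 of TTNNGNAAT. Fgg held 3 copies of CTGGGA and 0 of the other motifs, Fga 1 CTGGGA and 1 GTTAAT, and Fgb 2 CTGGGA, 1 GTTAAT and 2 TTNNGNAAT. RefSeq windows were found for 29 of the 37 factors. CTGGGA was present in 17 of the 29 (58.6%) and in 30.4% of all 27457 windows, GTTAAT in 9 (31.0%) and 7.37%, and TTNNGNAAT in 7 (24.1%) and 12.1%. A match is a run of letters and is not a measured binding site.

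At 10 mg/kg, 0 of the 37 factors passed an adjusted p of 0.05 against vehicle, where 0.105% of all genes did (limma, Benjamini-Hochberg over 9540 genes). At an unadjusted p under 0.05, 2 factors were higher (C6 and C8g) where 4.49% of all genes were, and 3 were lower (Serpinf2, Mbl2 and C1r) where 8.79% of all genes were. The treated and vehicle samples did not overlap in 1 factor, C6, against 2.44% of all genes. The mean was higher in 11 factors and lower in 26, with a median log2 difference of -0.03 against -0.02 for all genes. The counts at an unadjusted p lay near the shares of all genes. Means were higher in 29.7% of the factors and in 41.8% of all genes, but the split moved with single samples: it was 18 higher and 19 lower without vehicle sample 1, and 7 and 30 without 10 mg/kg sample 3. With quantile normalisation it was 15 higher and 22 lower. At an unadjusted p, 4 factors were higher without vehicle sample 1, 5 were lower without vehicle sample 4 and 7 were lower without 10 mg/kg sample 3.

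At 30 mg/kg, 0 of 37 factors and 0 of 9540 genes (0%) passed against vehicle (limma, Benjamini-Hochberg). At an unadjusted p under 0.05, 2 factors were higher (again C6 and C8g) and 0 lower, where 5.27% and 10.8% of all genes were. The groups overlapped in every one of the 37 factors, while they did not in 3.21% of all genes. The mean was higher in 16 factors and lower in 21, with a median of -0.01 against -0.03 for all genes, and without vehicle sample 1 it was higher in 25 and lower in 12. Without vehicle sample 4 it was higher in 10, and with quantile normalisation it was higher in 20. The count of 2 higher at an unadjusted p became 6 without vehicle sample 1, 1 when vehicle sample 2, vehicle sample 3 or 30 mg/kg sample 5 was left out, and 0 when vehicle sample 4, vehicle sample 5 or 30 mg/kg sample 2 or 3 was. Both treated groups were set against the same 5 vehicle samples, so their differences from vehicle are not independent of each other.

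Between 30 and 10 mg/kg, 0 factors and 0 genes (0%) passed (limma, Benjamini-Hochberg), and 0 factors had an unadjusted p under 0.05, where 2.57% of all genes were higher and 3.25% lower. The mean was higher in 26 factors (70.3%) and lower in 11, where 45.6% of all genes were higher, with a median log2 difference of 0.03 against -0.01 for all genes. It was higher in 31 factors without 10 mg/kg sample 3 and in 21 without 10 mg/kg sample 5. The count of 0 at an unadjusted p became 2 higher without 10 mg/kg sample 3, 2 lower without 30 mg/kg sample 2, and at most 1 with any other sample left out. The 2 doses overlapped in all 37 factors and were apart in 0.943% of all genes. In the mean of both doses against vehicle, 0 factors and 0.147% of all genes passed. There, 2 factors were higher (C6 and C8g) and 4 lower (Serpinf2, Serpind1, Proc and Mbl2) at an unadjusted p under 0.05, where 5.3% and 12.4% of all genes were, and the samples of both doses lay apart from vehicle in 0 factors and 0.608% of all genes. Without vehicle sample 1 these counts were 4 higher and 0 lower, so all 4 lower factors were lost, and with any other sample left out there were 2 higher and between 1 and 5 lower.

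The intervals limit how large a change could have been. The 95% confidence interval lay within 1.25-fold in either direction for 26 of 37 factors at 10 mg/kg (70.3%, against 72.8% of all genes) and for 30 of 37 at 30 mg/kg (81.1%, against 71.3%). The median residual SD within groups was 0.09 for the factors and 0.12 for all genes on the log2 scale, but the factors were uneven. C6 and Cfd had a larger residual SD than 96.5% and 93.9% of all genes, and Serpina1 than 0.0839%. Most factors are bright: the median of their mean log2 values was 13.18, while the highest value in the table was 15.38. Whether such bright signals understate differences was not tested.

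**Figure D1:**
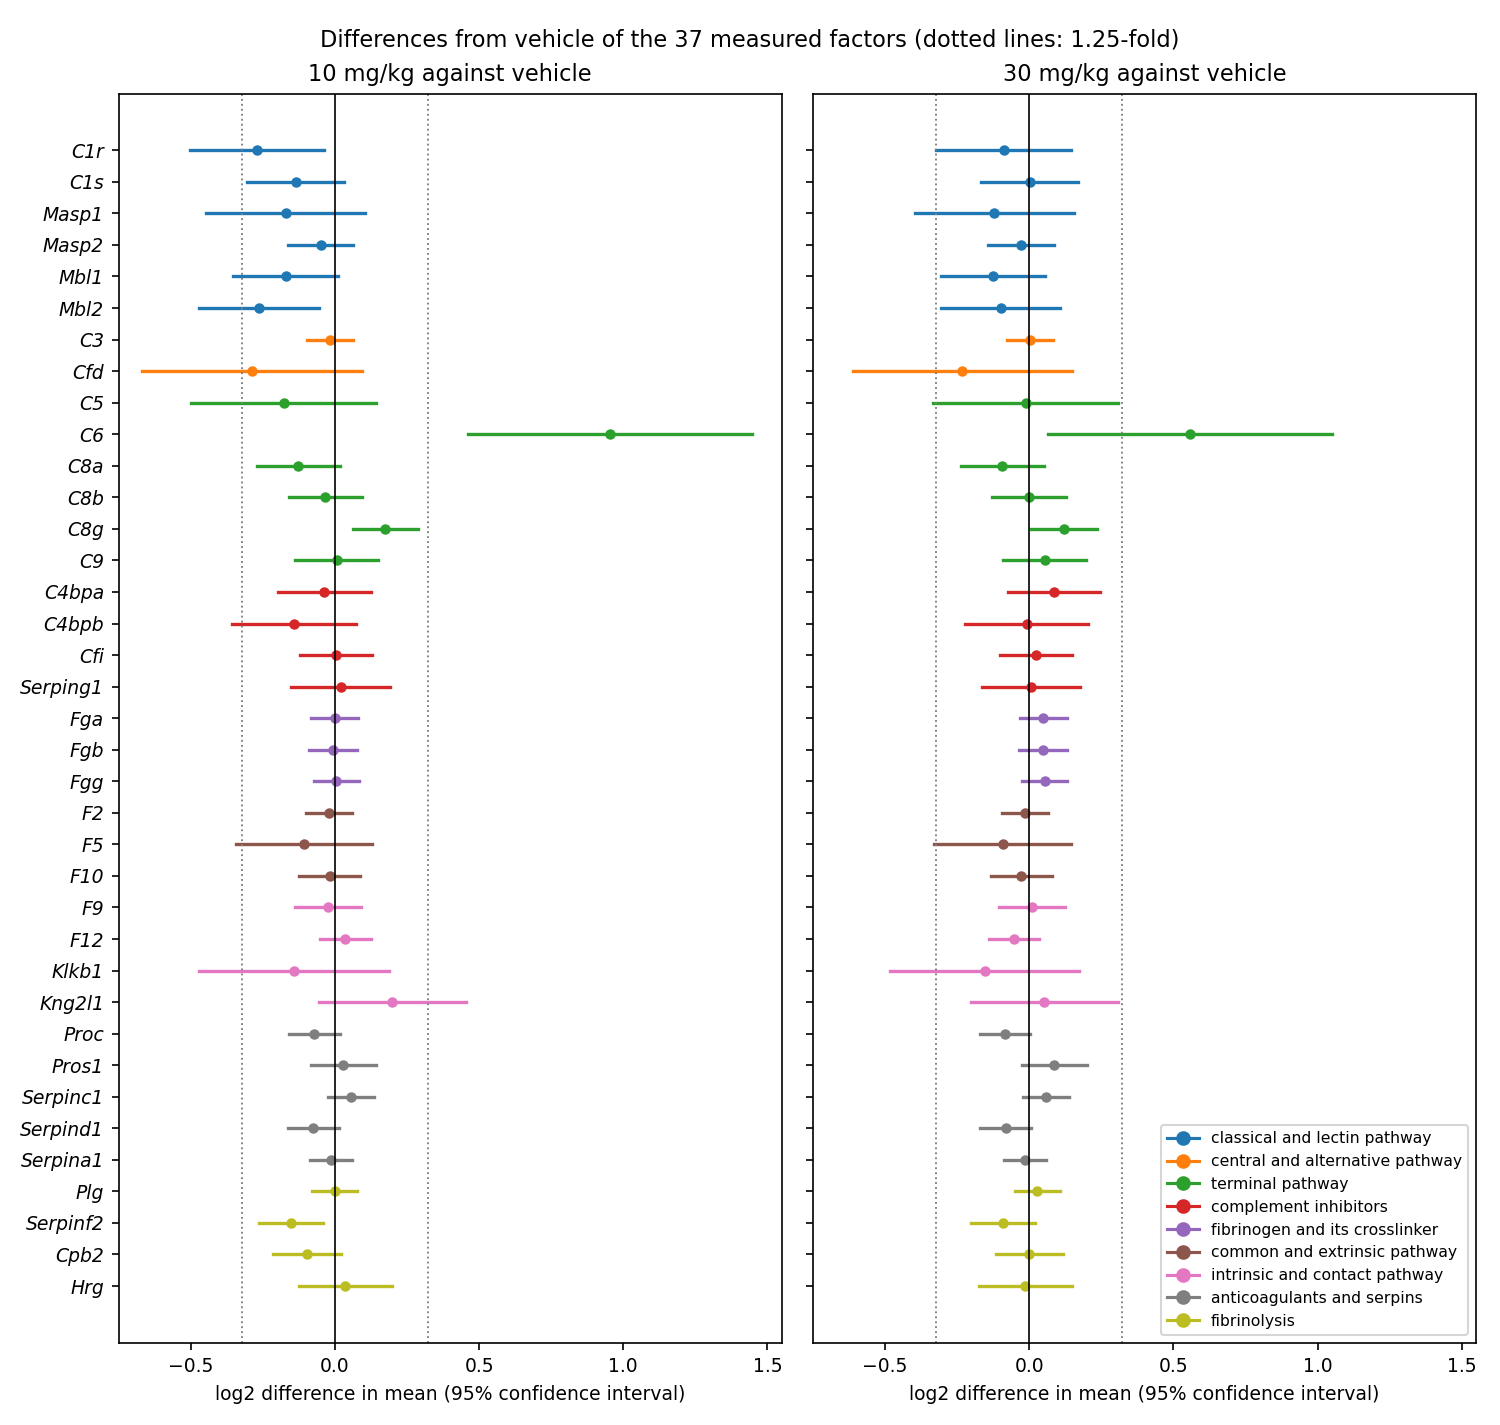
Log2 difference in mean from vehicle of each of the 37 factors at 10 mg/kg (left) and 30 mg/kg (right), with 95% confidence intervals from limma, coloured by role. C6 stands apart at 0.96 and 0.56, and 26 intervals at 10 mg/kg and 30 at 30 mg/kg lie between the dotted lines at 1.25-fold.

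Among the recognition factors and proteases of the classical and lectin routes, 6 of 8 genes were measured. All 6 had lower means at 10 mg/kg than in vehicle, with a median log2 difference of -0.17, and 5 of 6 did at 30 mg/kg, with a median of -0.09, where 58.2% and 62.0% of all genes did. Without vehicle sample 1 the means were lower in 6 at 10 mg/kg and in 4 at 30 mg/kg, with medians of -0.10 and -0.04. None of the 6 passed the adjusted test (lowest adjusted p = 0.281 at 10 mg/kg and 0.485 at 30 mg/kg, limma).

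Mbl2 encodes mannose-binding lectin C, which binds microbial sugars and starts the lectin route. Its log2 values were 13.28, 13.48, 13.01, 13.22 and 13.13 in vehicle, 12.89, 12.88, 12.93, 13.04 and 13.06 at 10 mg/kg, and 13.05, 12.94, 13.07, 13.47 and 13.09 at 30 mg/kg. The groups overlapped, since 10 mg/kg samples 4 and 5 and 4 of 5 samples at 30 mg/kg lay above the lowest vehicle sample. The log2 difference was -0.26 at 10 mg/kg, so that vehicle was 1.20-fold higher (95% confidence interval 1.04 to 1.38, limma, adjusted p = 0.281), and -0.10 at 30 mg/kg (adjusted p = 0.637). A dimmer probe set of Mbl2 gave -0.25 and -0.16.

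Mbl1 encodes the related lectin A. It measured 11.94, 11.52, 11.68, 11.56 and 11.57 in vehicle, 11.55, 11.35, 11.66, 11.43 and 11.40 at 10 mg/kg, and 11.57, 11.34, 11.47, 11.61 and 11.63 at 30 mg/kg. Vehicle sample 1 was the highest, and the remaining vehicle samples overlapped both treated groups. The log2 differences were -0.17 at 10 mg/kg and -0.13 at 30 mg/kg (limma, adjusted p = 0.403 and 0.485), and -0.10 and -0.05 without vehicle sample 1.

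C1r and C1s encode proteases that are bound to C1q, and C1s is the one that cleaves C4 and C2. C1r measured 12.60, 12.89, 12.56, 12.56 and 12.50 in vehicle, 12.42, 12.45, 12.66, 12.27 and 11.96 at 10 mg/kg, and 12.54, 12.37, 12.64, 12.50 and 12.61 at 30 mg/kg. At 10 mg/kg 4 of 5 samples lay below all vehicle samples and sample 3 did not. Vehicle was 1.21-fold higher than 10 mg/kg (1.03 to 1.42, limma, adjusted p = 0.316) and 1.06-fold higher than 30 mg/kg (adjusted p = 0.727).

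C1s measured 13.43, 13.36, 13.35, 13.10 and 13.15 in vehicle, 13.15, 13.23, 13.34, 13.08 and 12.90 at 10 mg/kg, and 13.27, 13.24, 13.32, 13.27 and 13.29 at 30 mg/kg. The 30 mg/kg samples lay within the vehicle range, and 10 mg/kg sample 5 was the lowest for both C1r and C1s. The log2 differences of C1s were -0.14 and 0.00 (limma, adjusted p = 0.486 and 0.994).

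Masp1 and Masp2 encode the proteases that ride on the lectins. Masp1 had a log2 difference of -0.17 at 10 mg/kg and -0.12 at 30 mg/kg (-0.08 and -0.03 without vehicle sample 1), and Masp2 of -0.05 and -0.03. The probe sets of Masp2 disagreed: another bright one gave 0.08 at both doses, and a dim one gave -0.35 at 10 mg/kg and -0.50 at 30 mg/kg. C4a, which encodes a form of C4, was read only by a probe set shared with C4b, with log2 values of 13.13 ± 0.46 in vehicle, 13.13 ± 0.29 at 10 mg/kg and 13.29 ± 0.11 at 30 mg/kg (SD, n = 5 each).

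C3, the protein on which all routes converge, differed by less than the spread between samples. It measured 14.91, 14.89, 14.97, 14.85 and 14.84 in vehicle, 14.90, 14.84, 14.90, 14.90 and 14.84 at 10 mg/kg, and 14.87, 14.88, 14.92, 14.92 and 14.89 at 30 mg/kg. The fold was 0.987 (0.934 to 1.04) at 10 mg/kg and 1.00 (0.948 to 1.06) at 30 mg/kg (limma, adjusted p = 0.871 and 0.979). Cfd, the protease factor D of the alternative route, made largely by fat cells, had a wide spread with log2 differences of -0.29 and -0.23 (limma, adjusted p = 0.513 and 0.539).

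Cfb encodes factor B, the protease of the alternative C3 convertase, and C2 its counterpart in the classical convertase. They could be read only together, by 4 probe sets that carry both symbols. At 10 mg/kg these gave log2 differences of -0.21, -0.25, -0.05 and -0.25, and at 30 mg/kg -0.02, -0.08, 0.00 and -0.04. Over the 4 the lowest adjusted p-values were 0.326 at 10 mg/kg and 0.715 at 30 mg/kg (limma over all filtered probe sets).

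The listed terminal factors C5, C6, C8a, C8b, C8g and C9 take part in building the membrane pore, and all 6 were measured. C7, which also takes part, was not among them. C6, which joins C5b in the first step of assembly, measured 10.77, 10.96, 10.70, 10.52 and 10.50 in vehicle, 12.19, 11.61, 11.32, 11.96 and 11.14 at 10 mg/kg, and 11.23, 11.98, 11.43, 11.001 and 10.60 at 30 mg/kg. All 5 samples at 10 mg/kg and 4 of 5 at 30 mg/kg lay above every vehicle sample, and the treated groups overlapped each other.

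C6 was 1.94-fold higher at 10 mg/kg than in vehicle (log2 difference 0.96 with SE 0.23, 95% confidence interval 1.38 to 2.73), with an unadjusted p of 0.000893 and an adjusted p of 0.122 (limma), so it did not pass. At 30 mg/kg it was 1.47-fold higher (1.05 to 2.07, adjusted p = 0.256, limma), and without 30 mg/kg sample 2 it was 1.30-fold higher (adjusted p = 0.390). Over the alternatives the adjusted p at 10 mg/kg lay between 0.0674 and 0.260 (limma). The log2 difference between 30 and 10 mg/kg was -0.40 (adjusted p = 0.866, limma). C6 also had the largest residual SD of the 37 factors, 0.40 against 0.03 for Serpina1, the smallest, and it was read by 1 probe set.

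C8g encodes the gamma chain of C8, a small lipocalin-fold subunit joined to the alpha chain. It measured 13.26, 13.17, 13.18, 13.16 and 13.19 in vehicle, 13.35, 13.46, 13.43, 13.35 and 13.25 at 10 mg/kg, and 13.26, 13.49, 13.30, 13.23 and 13.29 at 30 mg/kg. At 10 mg/kg 4 of 5 samples lay above all vehicle samples and sample 5 overlapped them. The folds over vehicle were 1.13 (1.04 to 1.22, limma, adjusted p = 0.205) and 1.09 (1.01 to 1.18, adjusted p = 0.282), and without 30 mg/kg sample 2 the fold at 30 mg/kg was 1.06 (adjusted p = 0.435).

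C8a and C8b encode the alpha and beta chains of the same protein. C8a measured 13.35, 13.08, 13.18, 13.16 and 13.0004 in vehicle, 13.06, 12.96, 13.19, 13.04 and 12.89 at 10 mg/kg, and 13.10, 12.96, 13.09, 13.09 and 13.07 at 30 mg/kg. All groups overlapped, with log2 differences of -0.13 and -0.09 (limma, adjusted p = 0.437 and 0.518), in the direction opposite to C8g, and of -0.08 and -0.04 without vehicle sample 1. C8b differed by -0.03 and 0.00, and C9, which polymerises into the wall of the pore, by 0.01 and 0.05.

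C5, whose cleavage releases the chemoattractant C5a, measured 12.52, 11.91, 11.90, 11.50 and 12.03 in vehicle, 11.92, 11.79, 12.09, 11.71 and 11.47 at 10 mg/kg, and 11.87, 11.80, 12.06, 12.01 and 12.06 at 30 mg/kg. The vehicle samples alone spanned almost the whole range, from sample 1 at the top to sample 4 near the bottom. The log2 differences were -0.18 and -0.01 (limma, adjusted p = 0.644 and 0.976), and without vehicle sample 1 they were -0.04 and 0.12.

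The complement inhibitors showed small differences in mean. C4bpa and C4bpb encode the chains of C4b-binding protein, Cfi the protease that inactivates C3b and C4b, and Serping1 the C1 inhibitor. C4bpb had the lowest log2 difference at 10 mg/kg, -0.14, and C4bpa the highest at 30 mg/kg, 0.09, and the lowest adjusted p of the 4 was 0.57 (limma). Vehicle sample 1 was far above the others for C4bpb, at 13.25 against 12.54 to 12.70 in the other vehicle samples. Without that sample the log2 differences of C4bpb were -0.02 at 10 mg/kg and 0.11 at 30 mg/kg, and that of C4bpa at 30 mg/kg was 0.15.

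**Figure D2:**
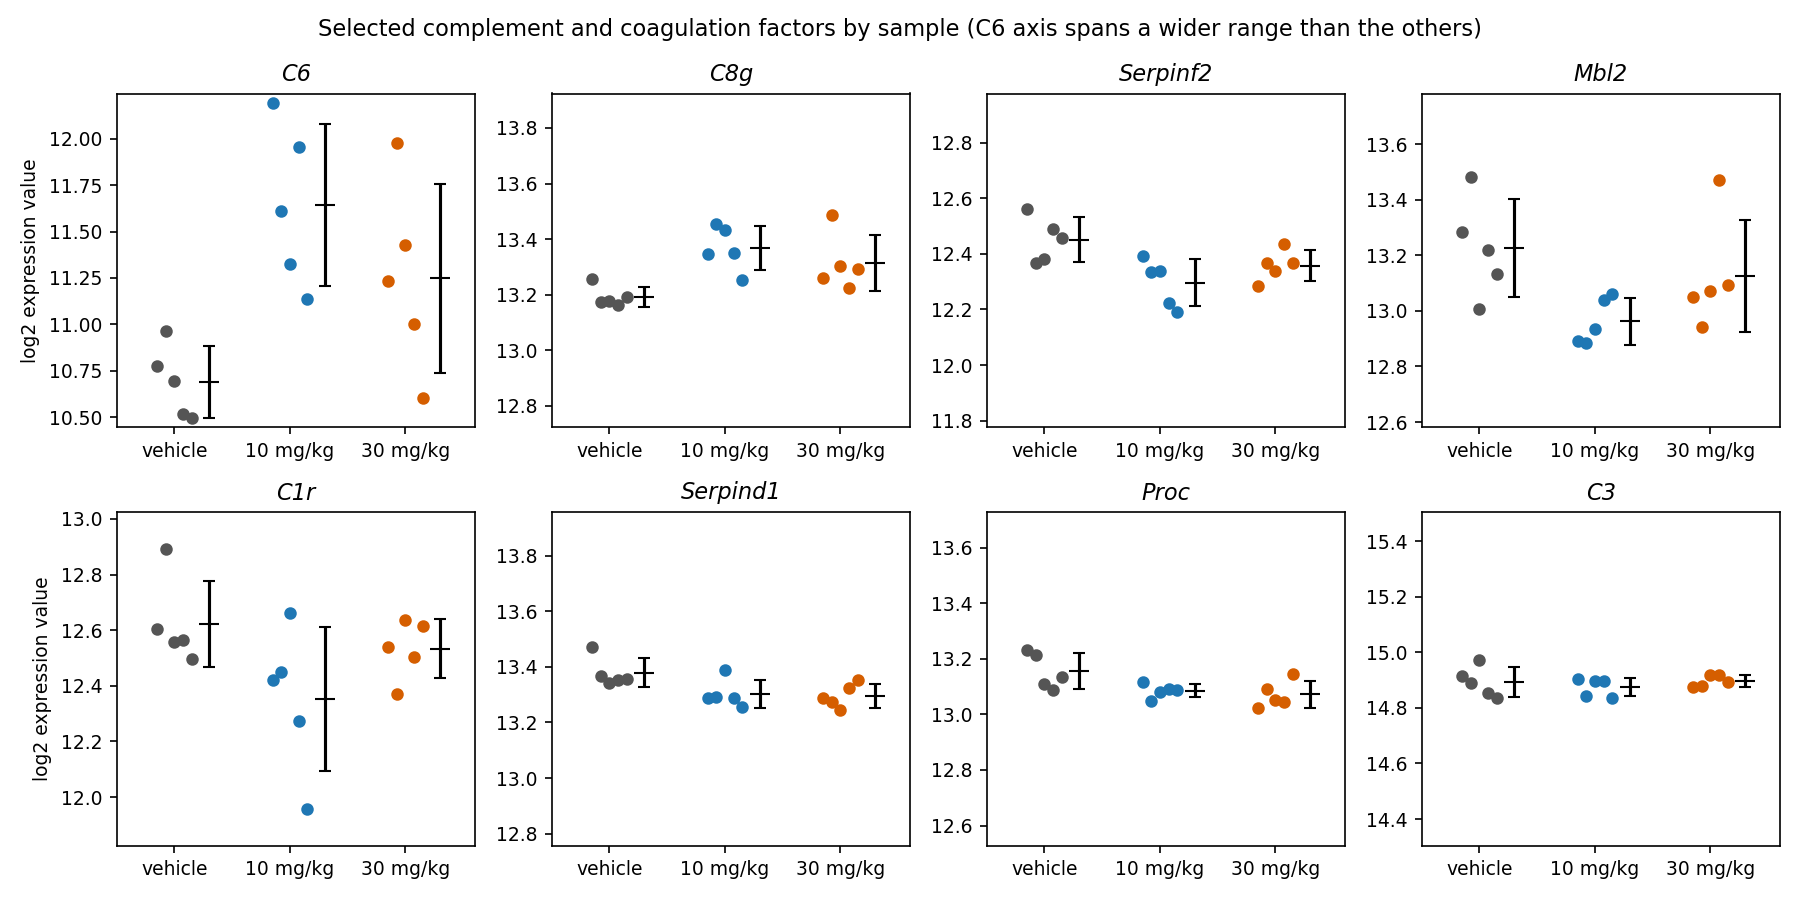
Log2 values of 8 factors in each sample, samples 1 to 5 from left to right within vehicle, 10 mg/kg and 30 mg/kg, with the group mean and SD as black bars. For C6 all samples at 10 mg/kg lie above all vehicle samples, for C8g, Serpinf2, Mbl2, C1r, Serpind1 and Proc the groups overlap, and C3 stays within 14.84 to 14.97.

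Fibrinogen, the precursor of the clot, is a dimer of alpha, beta and gamma chains, encoded by Fga, Fgb and Fgg. Fga measured 14.58, 14.51, 14.55, 14.58 and 14.53 in vehicle, 14.51, 14.50, 14.63, 14.60 and 14.51 at 10 mg/kg, and 14.61, 14.56, 14.63, 14.60 and 14.59 at 30 mg/kg. The 10 mg/kg samples straddled the vehicle samples. Its folds over vehicle were 1.00 (0.944 to 1.06) and 1.03 (0.977 to 1.09), with adjusted p-values of 0.997 and 0.554 (limma).

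Fgb measured 14.61, 14.50, 14.55, 14.49 and 14.54 in vehicle, 14.54, 14.50, 14.62, 14.50 and 14.51 at 10 mg/kg, and 14.57, 14.56, 14.64, 14.59 and 14.57 at 30 mg/kg. Fgg measured 14.72, 14.63, 14.69, 14.68 and 14.64 in vehicle, 14.63, 14.64, 14.74, 14.69 and 14.67 at 10 mg/kg, and 14.73, 14.71, 14.74, 14.74 and 14.69 at 30 mg/kg. At 30 mg/kg all 3 chains had a mean higher than vehicle by 0.05 on the log2 scale, within the overlap of the groups, and every interval lay within 1.25-fold. Fgb and Fgg had adjusted p-values of 0.562 and 0.496 at 30 mg/kg (limma). A dimmer probe set of Fga gave -0.16 at 10 mg/kg and 0.08 at 30 mg/kg, and the other 2 probe sets of Fgb were below the filter.

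F2 encodes prothrombin, whose active form, thrombin, cleaves fibrinogen. It measured 14.16, 14.08, 14.05, 14.03 and 14.01 in vehicle, 14.06, 14.04, 14.07, 14.02 and 14.04 at 10 mg/kg, and 14.06, 14.02, 14.03, 14.07 and 14.07 at 30 mg/kg. All treated samples lay within the vehicle range, and the folds were 0.986 (0.933 to 1.04) and 0.99 (0.937 to 1.05), with adjusted p-values of 0.852 and 0.884 (limma). F10, the protease that activates prothrombin, and F5, its cofactor, had log2 differences of -0.02 and -0.11 at 10 mg/kg and of -0.03 and -0.09 at 30 mg/kg. Without vehicle sample 1 those of F5 were 0.00 and 0.01.

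In the intrinsic and contact route, F12, the factor that starts it on charged surfaces, had the lowest p of the 37 factors between the doses. It measured 13.15, 13.26, 13.22, 13.13 and 13.16 in vehicle, 13.25, 13.24, 13.22, 13.19 and 13.20 at 10 mg/kg, and 13.06, 13.20, 13.14, 13.09 and 13.17 at 30 mg/kg. The log2 difference between 30 and 10 mg/kg was -0.09, so that 10 mg/kg was 1.06-fold higher (adjusted p = 0.851, limma), and 30 mg/kg sample 2 overlapped the 10 mg/kg samples. F9, the protease missing in haemophilia B, differed from vehicle by -0.03 and 0.01.

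Klkb1, plasma prekallikrein, differed by -0.14 and -0.16 with a wide spread among vehicle samples, and by -0.05 and -0.06 without vehicle sample 1. The listed kininogen gene Kng1 is a former symbol of Kng2l1, whose probe set gave 0.20 at 10 mg/kg and 0.05 at 30 mg/kg (limma, adjusted p = 0.501 and 0.867), and 0.33 and 0.18 without vehicle sample 1. The rat has several near-identical kininogen genes, and other probe sets of Kng2l1 gave 0.12 and 0.01 at 10 mg/kg. The platform also names Kng1 itself, beside Kng2l1 and Kng2, on 1 shared probe set. That set gave -0.10 at 10 mg/kg and -0.06 at 30 mg/kg (limma, adjusted p = 0.827 and 0.882), so the values for Kng1 are uncertain.

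Among the anticoagulants and serpins, Serpind1, heparin cofactor II, which inhibits thrombin, measured 13.47, 13.37, 13.34, 13.35 and 13.36 in vehicle, 13.29, 13.29, 13.39, 13.29 and 13.26 at 10 mg/kg, and 13.29, 13.27, 13.24, 13.32 and 13.35 at 30 mg/kg. In each treated group 4 of 5 samples lay below all vehicle samples. In the mean of both doses vehicle was 1.06-fold higher (adjusted p = 0.27, limma).

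Proc, protein C, which inactivates factors V and VIII, measured 13.23, 13.21, 13.11, 13.09 and 13.13 in vehicle, 13.11, 13.05, 13.08, 13.09 and 13.09 at 10 mg/kg, and 13.02, 13.09, 13.05, 13.05 and 13.15 at 30 mg/kg. Vehicle samples 1 and 2 lay above every treated sample, and the other vehicle samples overlapped them. In the mean of both doses vehicle was again 1.06-fold higher (adjusted p = 0.273, limma).

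Pros1, the cofactor of protein C, measured 11.30, 11.24, 11.21, 11.15 and 11.29 in vehicle, 11.24, 11.20, 11.18, 11.34 and 11.37 at 10 mg/kg, and 11.26, 11.26, 11.32, 11.45 and 11.34 at 30 mg/kg. All groups overlapped, and the log2 differences were 0.03 and 0.09 (limma, adjusted p = 0.851 and 0.44). Serpina1, alpha-1-antitrypsin, varied least of all the factors, with a log2 difference of -0.01 at both doses.

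Serpinc1, antithrombin, measured 14.31, 14.19, 14.24, 14.18 and 14.18 in vehicle, 14.29, 14.29, 14.28, 14.26 and 14.26 at 10 mg/kg, and 14.26, 14.30, 14.30, 14.29 and 14.24 at 30 mg/kg. All treated samples lay above 4 of the 5 vehicle samples and below vehicle sample 1. The mean was higher than in vehicle by 0.05 at 10 mg/kg and by 0.06 at 30 mg/kg on the log2 scale (limma, adjusted p = 0.55 and 0.45).

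In fibrinolysis, Plg, the precursor of plasmin, measured 14.34, 14.33, 14.38, 14.25 and 14.35 in vehicle, 14.34, 14.32, 14.34, 14.33 and 14.32 at 10 mg/kg, and 14.30, 14.38, 14.35, 14.38 and 14.38 at 30 mg/kg. The groups overlapped, and the folds were 0.999 (0.947 to 1.05) and 1.02 (0.966 to 1.08), with adjusted p-values of 0.996 and 0.741 (limma).

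Serpinf2, alpha-2-antiplasmin, which blocks plasmin, measured 12.56, 12.37, 12.38, 12.49 and 12.46 in vehicle, 12.39, 12.34, 12.34, 12.22 and 12.19 at 10 mg/kg, and 12.28, 12.37, 12.34, 12.43 and 12.37 at 30 mg/kg. At 10 mg/kg 4 of 5 samples lay below all vehicle samples. Vehicle was 1.11-fold higher than 10 mg/kg (1.03 to 1.20, adjusted p = 0.246, limma) and 1.07-fold higher than 30 mg/kg (adjusted p = 0.395).

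Cpb2, the carboxypeptidase that slows fibrinolysis, measured 13.35, 13.19, 13.35, 13.18 and 13.17 in vehicle, 13.21, 13.22, 13.10, 13.01 and 13.22 at 10 mg/kg, and 13.31, 13.21, 13.22, 13.26 and 13.23 at 30 mg/kg. All groups overlapped, with log2 differences of -0.10 and 0.00 from vehicle (limma, adjusted p = 0.469 and 0.999). Hrg, a histidine-rich glycoprotein that binds plasminogen and heparin, differed by 0.04 and -0.01.

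**Figure D3:**
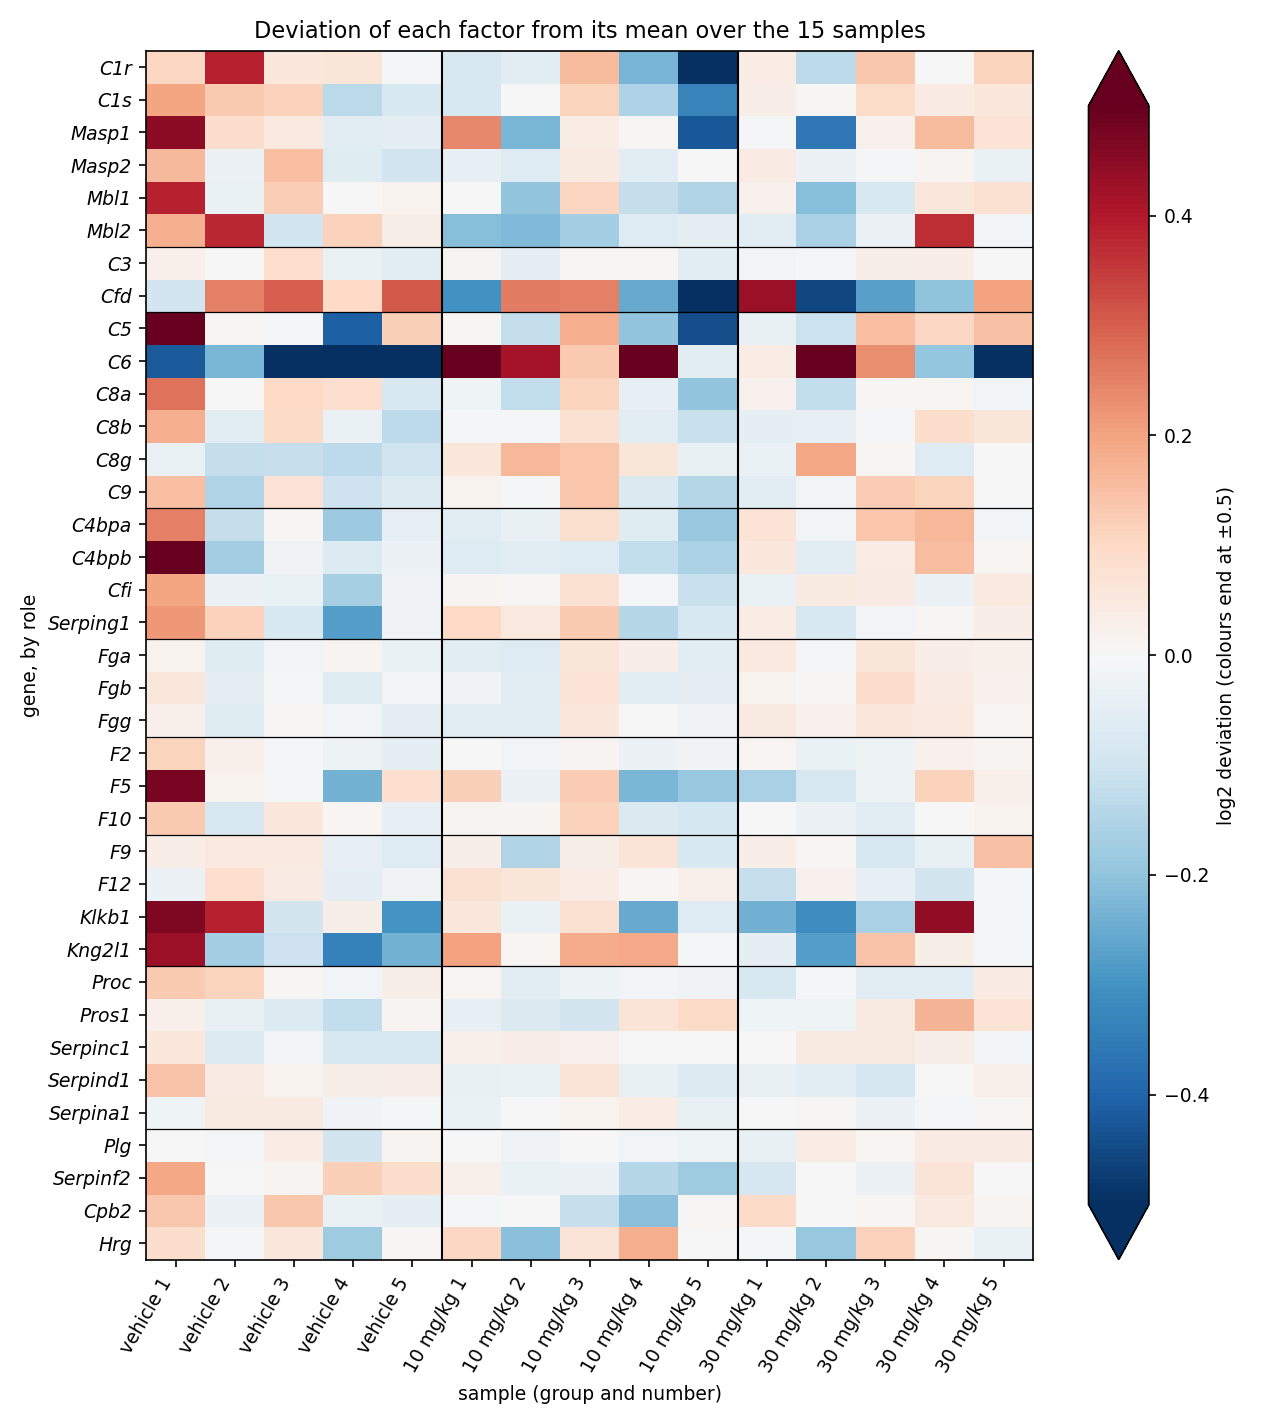
Deviation of each of the 37 factors (rows, by role) from its mean over the 15 samples (columns), in log2 units with colours ending at ±0.5. Vehicle sample 1 is high in most rows, where it was the highest of 15 in 22 factors, and 10 mg/kg sample 5 was the lowest of 15 in 10.

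Samples of 1 group differed in a pattern that many factors shared. The factors' median deviation from their own means was 0.14 in vehicle sample 1 and -0.06 in 10 mg/kg sample 5, while the medians of all genes in these samples were 0.01 and -0.01. Of 14 measured secreted acute phase proteins outside the 43, vehicle sample 1 was the highest of 15 in 10 and the lowest in 2. Among the 10 was A2m, alpha-2-macroglobulin, a strongly inducible acute phase protein of the rat, at a log2 value of 11.83 in that sample and between 4.89 and 8.46 in the other 14. Hamp, which encodes hepcidin, was at 6.37, 8.92 and 8.42 in vehicle samples 1, 2 and 3 and between 12.99 and 13.93 in the other 12 samples, so it was low in 3 vehicle samples and not in vehicle sample 1 alone. What set vehicle sample 1 apart was not tested.

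Chains that form 1 protein were compared by their deviations from the group means, so that differences between groups were removed. Only 10 chosen pairs were compared, so whether chains of 1 protein follow each other more closely than other factors do was not tested. Over 15 samples and 10 pairs, with 100000 permutations within groups, Fga and Fgg gave r = 0.86 (permutation p = 0.00039, adjusted p = 0.0039) and rho = 0.86 (adjusted permutation p = 0.0055). C4bpa and C4bpb gave r = 0.85 and rho = 0.78, C8a and C8b 0.82 and 0.70, and C1r and C1s 0.79 and 0.77. The last 3 pairs had adjusted permutation p-values for r of 0.00407, 0.00407 and 0.00912. Fgb and Fgg gave r = 0.69 (adjusted permutation p = 0.0353) and rho = 0.57 (adjusted permutation p = 0.113). Fga with Fgb (r = 0.56) and factor V with factor X (F5 and F10, r = 0.65) did not pass after adjustment. Their adjusted permutation p-values were 0.0802 and 0.0565, from permutation p-values of 0.0561 and 0.0339. The gamma chain of C8 did not follow the other chains, with r = 0.10 against C8a and 0.21 against C8b, and the lectins Mbl1 and Mbl2, which form separate proteins, gave 0.12 (adjusted permutation p from 0.471 to 0.695).

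Some of these relations no longer passed with the samples at the ends left out. Without the 2 samples farthest from the median on the first gene named, C4bpa with C4bpb still passed (r = 0.77, adjusted permutation p = 0.0147). Fga with Fgg had the same r of 0.77 and passed by rho (0.82, adjusted permutation p = 0.0291) but not by r (adjusted permutation p = 0.0681). For the other 3 pairs r fell short of the threshold, with C8a and C8b at 0.66 (adjusted permutation p = 0.0841), C1r and C1s at 0.54 (0.214) and Fgb and Fgg at 0.21 (0.71), and rho did too (adjusted permutation p from 0.0616 to 0.698). The test then has 13 samples in place of 15 and a narrower range of values, which can lower r by itself. Whether those calls rest on the end samples alone can therefore not be told from it. Without vehicle sample 1 the r of Fga with Fgg, C4bpa with C4bpb, C8a with C8b and C1r with C1s lay between 0.70 and 0.87, and all 4 passed by r, while the rho of C8a with C8b did not (adjusted permutation p = 0.0779). The values of a pair share their array and the normalisation between arrays, and the part of these was not tested.

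**Figure D4:**
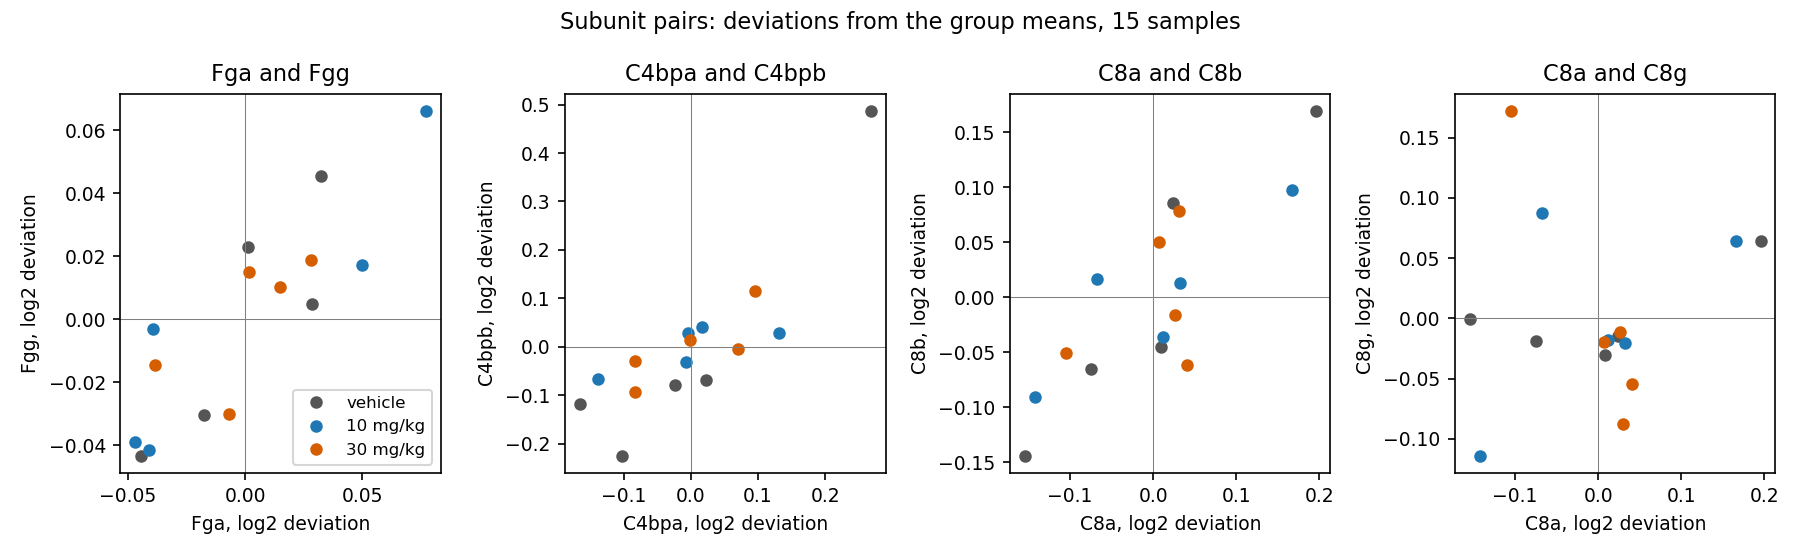
Log2 deviations from the group means of 4 pairs of chains in the 15 samples, coloured by group. Fga with Fgg (r = 0.86), C4bpa with C4bpb (0.85) and C8a with C8b (0.82) lie along a line, with vehicle sample 1 at the upper end for C4bpa with C4bpb and C8a with C8b, while C8a with C8g (0.10) does not.

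Genes of the same pathways outside the 43 were read from further lists. Of 24 listed other complement genes 12 were measured, and 0 passed at either dose (limma, Benjamini-Hochberg). At an unadjusted p under 0.05, 0 were higher and 6 lower at 10 mg/kg, and 0 were higher and 1 lower at 30 mg/kg. Among all genes 4.49% were higher and 8.79% lower at 10 mg/kg and 5.27% and 10.8% at 30 mg/kg, which are the shares to read the counts of the next lists against too. The median log2 differences were -0.28 and -0.20, against -0.02 and -0.03 for all genes. The lowest p-values at 10 mg/kg were those of Itgb2, the beta chain of the complement receptors of leukocytes (log2 difference -0.42, limma, adjusted p = 0.235), Colec11, a lectin that activates complement (-0.26, adjusted p = 0.261), and Clu, clusterin, an inhibitor of the pore (-0.16, adjusted p = 0.316).

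This list holds C1qa, C1qb and C1qc, the chains of C1q, which macrophages make. Markers of Kupffer cells and macrophages, the same 3 genes included, had lower means than vehicle in 9 of 9 measured genes at both doses. Among all genes 58.2% had lower means at 10 mg/kg and 62.0% at 30 mg/kg. The median log2 differences of the 9 were -0.39 at 10 mg/kg and -0.34 at 30 mg/kg, and 2 of the 11 listed (Marco and Vsig4) were not measured. At an unadjusted p under 0.05, 6 of the 9 were lower at 10 mg/kg and 2 at 30 mg/kg, with 0 higher (limma). The shares of all genes that were lower were 8.79% and 10.8%. The summed log2 level of the 9 lay between 12.68 and 13.26 in vehicle, between 12.24 and 12.89 at 10 mg/kg and between 12.07 and 13.22 at 30 mg/kg. None of the 9 passed. Their part in the differences of the complement genes was not tested.

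Of 24 listed other coagulation and fibrinolysis genes 13 were measured. None passed, with 2 higher and 3 lower at 10 mg/kg and 2 higher and 1 lower at 30 mg/kg at an unadjusted p under 0.05 (limma). Those higher at both doses were Ggcx and Vkorc1, the carboxylase and the reductase of the vitamin K cycle that makes prothrombin, factors VII, IX and X, protein C and protein S functional.

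Ggcx measured 9.65, 9.52, 9.59, 9.54 and 9.79 in vehicle, 10.01, 9.91, 9.99, 9.84 and 9.84 at 10 mg/kg, and 9.78, 9.97, 9.75, 9.80 and 9.80 at 30 mg/kg. The 10 mg/kg samples lay above all vehicle samples and the 30 mg/kg samples overlapped them. It was 1.23-fold higher at 10 mg/kg (limma, adjusted p = 0.074) and 1.15-fold higher at 30 mg/kg (adjusted p = 0.171). Vkorc1 measured 12.37, 12.31, 12.43, 12.23 and 12.36 in vehicle, 12.54, 12.61, 12.66, 12.73 and 12.58 at 10 mg/kg, and 12.58, 12.85, 12.69, 12.50 and 12.48 at 30 mg/kg. Every treated sample lay above every vehicle sample, and the folds were 1.22 at both doses (limma, adjusted p = 0.122 and 0.127). For comparison, treated and vehicle samples did not overlap, in either direction, in 2.44% of all genes at 10 mg/kg and 3.21% at 30 mg/kg. The share was 0.608% for the samples of both doses. Ggcx and Vkorc1 were shown by sample after their values were seen. Genes of the same list that were lower, 3 at 10 mg/kg and 1 at 30 mg/kg at an unadjusted p under 0.05 (limma), are not shown by sample.

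Of 18 listed transcription factors of liver secreted proteins 15 were measured and 0 passed (limma). At an unadjusted p under 0.05, 2 were lower at 10 mg/kg and 4 at 30 mg/kg, with 0 higher. Foxa3, a forkhead factor of hepatocytes, had log2 differences of -0.61 (adjusted p = 0.242, limma) and -0.80 (adjusted p = 0.131), and Nr0b2, the bile acid responsive repressor SHP, had -0.48 and -1.17 (adjusted p = 0.672 and 0.226). Cebpd, which is induced in the acute phase, had -0.31 and -0.22 (adjusted p = 0.282 and 0.366), and -0.21 and -0.11 without vehicle sample 1.

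Of 19 listed genes of the acute phase 18 were measured (14 secreted proteins and Il1r1, Il6r, Il6st and Socs3, which encode cytokine receptors and an inhibitor of their signalling) and 0 passed, with 2 higher and 2 lower at 10 mg/kg and 2 higher and 1 lower at 30 mg/kg at an unadjusted p under 0.05 (limma). Lbp, lipopolysaccharide-binding protein, measured 12.02, 11.24, 11.51, 10.92 and 10.93 in vehicle, 10.34, 10.59, 10.69, 10.67 and 10.58 at 10 mg/kg, and 10.70, 10.65, 11.07, 11.30 and 10.73 at 30 mg/kg. All 10 mg/kg samples lay below all vehicle samples, and vehicle was 1.68-fold higher than 10 mg/kg (limma, adjusted p = 0.132) and 1.35-fold higher than 30 mg/kg (adjusted p = 0.267). Without vehicle sample 1 these folds were 1.49 and 1.20. Crp went the other way, between 13.48 and 13.74 in vehicle, 13.65 and 13.98 at 10 mg/kg, and 13.79 and 14.01 at 30 mg/kg. Groups did not overlap in 2.44% of all genes at 10 mg/kg and in 3.21% at 30 mg/kg. Means of the 18 were higher in 9 and lower in 9 at 10 mg/kg, and higher in 12 and lower in 6 at 30 mg/kg. Median log2 differences of the list were 0.00 at 10 mg/kg and 0.05 at 30 mg/kg (0.09 and 0.12 without vehicle sample 1), while all genes had -0.02 and -0.03.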

How the data were processed

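Livers were measured on 15 Affymetrix arrays, 5 per group, and groups were taken from the sample titles. The deposited values are on a log2 scale, 1 per probe set and array, and had been normalised across arrays by the authors. Per the submitters' processing notes the tools were RMA, GCRMA 2.12.1 and limma 2.14.7, whose roles are not given in the sources used here. Every column belonged to a sample of the series (0 did not), and 0 pairs of arrays held identical values. The number of arrays limits the precision.

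Of 31099 probe sets, 57 were controls, 20826 carried 1 gene symbol in the platform annotation, 436 several and 9780 none. Of the sets with 1 symbol, 20758 matched a current GRCr8 entry. A probe set was kept where the fifth highest of 15 values exceeded 6.10, the median of the table, and the brightest stood for a gene, which left 9540 genes. The 37 factors had 47 probe sets, and 6 genes had more than 1. Probe sets shared by several genes were fitted among all 15929 filtered probe sets.

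Group means were fitted to all 15 arrays with limma 3.58.1 in R 4.3.3, with eBayes and Benjamini-Hochberg adjustment over all genes tested, and the threshold for a call was an adjusted p of 0.05. The procedure was tested on simulated data. Correlations used deviations from group means with two-sided permutation p-values, and p-values were adjusted over 10 pairs. Alternatives were no filter, a stricter filter (1 log2 unit higher), averaging the probe sets of a gene, quantile normalisation, median centring, trend and robust options, a replicate block, only the compared groups, and each sample left out. Leaving vehicle sample 1 aside in the correlations, and listing its effect on every factor and list, was chosen after the data were seen.

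The members, lists and tests were chosen with earlier results of these data known. Values of every sample are given for up to 8 factors with the lowest p against vehicle at each dose, up to 4 between doses and for the mean of both doses, and always for C3, C5, F2, Fga, Fgb, Fgg, Plg and Serpinc1. Up to 3 genes with the lowest p are named in each other list. A2m, Hamp, Nr0b2, Crp, C1q chains and the sample values of Ggcx, Vkorc1 and Lbp were chosen after their values were seen. Markers of endothelial cells had lower means than vehicle in 7 of 7 measured genes at both doses. Those of stellate cells did in 6 of 6 at 10 mg/kg and 4 of 6 at 30 mg/kg, and 0 of either list were called by limma. Among all genes 58.2% had lower means at 10 mg/kg and 62.0% at 30 mg/kg. At an unadjusted p under 0.05 (limma), 2 endothelial markers were lower at each dose, and 3 stellate markers at 10 mg/kg and 0 at 30 mg/kg. The shares of all genes that were lower were 8.79% and 10.8%. Of the remaining lists, 3 lymphocyte and neutrophil, 3 platelet and 3 erythroid markers, 1 cholangiocyte marker and 1 adipocyte marker were measured, with 0 called.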

Additional observations from a re-analysis of the deposited data

Results flagged for a closer look

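In each of 111 groups of 5 values (37 factors in 3 groups) the gap between the most extreme sample and its neighbour was divided by the range of the group, and 7 groups exceeded the critical value of 0.71 (Dixon, 95%), where chance flags about 1 in 20 groups. In 3 of the 7 the outlying sample was vehicle sample 1. It was the highest for Serpind1, heparin cofactor II (gap ratio 0.798, 13.47 against 13.34 to 13.37 in the other vehicle samples), for C4bpb, a chain of C4b-binding protein (0.78, 13.25 against 12.54 to 12.70), and for Masp1, a protease of the lectin route (0.723, 9.91 against 9.41 to 9.55). Vehicle sample 2 was the highest for C1r, a protease of the classical route (0.726, 12.89 against 12.50 to 12.60). For Serpind1, 10 mg/kg sample 3 was the highest of its group (0.736, 13.39 against 13.26 to 13.29). At 30 mg/kg, sample 4 was the highest for Mbl2, a mannose-binding lectin (0.714, 13.47 against 12.94 to 13.09), and sample 2 was the lowest for C8a, the alpha chain of C8 (0.767, 12.96 against 13.07 to 13.10). What set these samples apart was not tested.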

How the results depend on the processing

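The count of factors called was 0 in each of the 91 alternatives over the 4 comparisons. With 1 sample left out, the factors' median log2 difference lay between -0.05 and 0.00 at 10 mg/kg and between -0.03 and 0.02 at 30 mg/kg, so its sign at 30 mg/kg was not stable. Without vehicle sample 1 the sign of single differences changed in 7 factors at 10 mg/kg, 9 at 30 mg/kg and 6 for both doses. Values that moved by more than the spread between samples were those of Fga (-0.08 at 10 mg/kg, and 0.145 between doses) and Masp2 (-0.15 at 30 mg/kg, -0.13 for both doses) with the mean of probe sets, and F2 (0.03 at 30 mg/kg) with quantile normalisation. Counts over all genes were less stable. At 10 mg/kg limma called 10 genes, 3 without a filter, 0 with a replicate block (1212 genes at an unadjusted p under 0.05) and between 0 and 26 with 1 sample left out. At 30 mg/kg the count of 0 lay between 0 and 5 with 1 sample left out, and for the mean of both doses the count of 14 became 22 with a stricter filter, 3 with a replicate block and between 0 and 85 with 1 sample left out. Over all genes the sample numbers gave little sign of pairing. Correlations of same-numbered samples lay between -0.0706 and 0.195, 3 of 15 were over 0.1, and 3 of 15 samples correlated best with their own number. A pairing that touches few genes would not show in these correlations.

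Correlations of chains that no longer passed were Fga with Fgg (r = 0.7686, though rho passed at an adjusted permutation p of 0.0291), Fgb with Fgg (0.2136), C8a with C8b (0.66) and C1r with C1s (0.5441) without the 2 farthest samples, Fga with Fgg (0.5415) with the mean of probe sets, and Fgb with Fgg (0.6046) without vehicle sample 1; causes were not tested. The 5 samples a group limit the precision.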
